A study of Mus musculus with 36 samples.

Results

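Genes that mark B cells and plasma cells were followed through mouse mammary glands that carried a tumor or only the carrier gel. The members were 8 genes taken by name from the deposited score table, out of 21650 genes in all. They were *Ms4a1*, *Cd79a*, *Cd79b* and *Tnfrsf13c* for B cells, *Jchain* and *Mzb1* for plasma cells, and *Ighm* and *Igkc* for the immunoglobulin (Ig) constant regions. For 6 members the symbol in the deposited tables was used, while *Ighm* and *Igkc* were found by their Ensembl gene identifiers.

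B cells carry an antigen receptor made of a membrane Ig and the signaling pair Cd79a and Cd79b. *Ms4a1* encodes CD20, a surface protein of mature B cells that is lost when they become plasma cells, and *Tnfrsf13c* encodes the receptor for the survival factor BAFF. Plasma cells are the antibody factories: *Jchain* encodes the joining chain that links IgA or IgM units, and *Mzb1* encodes an endoplasmic reticulum chaperone of antibody assembly. *Ighm* encodes the constant region of IgM, which is read in naive B cells as well as in IgM plasma cells, and *Igkc* that of the kappa light chain, which is shared by antibodies of every class. During lactation the mammary gland is settled by IgA plasma cells, and their dimeric IgA is carried into milk by the epithelial receptor encoded by *Pigr*.

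The series held 36 RNA-seq libraries in 12 groups of 3. Lactating adult females received an injection through the teat duct of the third mammary gland right after their pups were weaned, so all groups shared a gland in involution. Tumor groups were 4T1 cells, a luciferase-expressing mammary carcinoma line, in BALB/c mice and Py230 cells, a line from an MMTV-PyMT mammary tumor, in C57BL/6 mice. Control groups were glands of either strain given Matrigel, the gel in which the cells were suspended. Tissue was taken 1, 3 and 6 w post-inoculation (p.i.) and flash-frozen. Each line was grown in 1 strain, so the tumor line and the strain of the host cannot be told apart in 4T1 compared to Py230 tumors, and the 4T1-minus-gland and Py230-minus-gland differences were therefore compared as well.

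In mm10 the members lay on 8 chromosomes and shared no locus. *Ms4a1* was annotated at chr19:11249675-11266241 on the minus strand, *Cd79a* at chr7:24897381-24902197 on the plus strand, *Cd79b* at chr11:106311341-106314762 on the minus strand and *Tnfrsf13c* at chr15:82221743-82224369 on the minus strand. *Jchain* was annotated at chr5:88519809-88527891 and *Mzb1* at chr18:35647267-35649367, both on the minus strand. *Ighm* lay in the heavy chain locus at chr12:113418558-113422730 on the minus strand and *Igkc* in the kappa locus at chr6:70726435-70726966 on the plus strand. These are whole gene spans, exons and introns together.

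Values were scores, that is log-like expression values that had been brought to a mean of 0 and a standard deviation of 1 in every library. A difference of scores is not a fold change. Across 13567 genes with a deposited mean normalized count of 100 or more, 1 score unit spanned 2.78 log2 units of that mean. The read depth of the libraries is unknown from the score table. The deposited mean normalized count, which is not divided by gene length, was 8.03 for *Ms4a1*, 12.2 for *Tnfrsf13c*, 38.5 for *Mzb1*, 45.6 for *Cd79a*, 47.9 for *Cd79b*, 1239 for *Ighm*, 9064 for *Jchain* and 18802 for *Igkc*. *Ms4a1* and *Tnfrsf13c* thus rested on few reads per library, and the antibody genes on many.

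RefSeq promoter windows (GRCm38.p6) were at hand for 3 of the 8 members. Their 250 bases before the RefSeq gene start are shown because *Cd79a* and *Jchain* moved together across the libraries and *Tnfrsf13c* did not, as described further on. Each is given 5′ to 3′ on the strand of the gene, all in lower case since no searched motif was found in them. The windows are chr7:24897247-24897496 (plus strand) for *Cd79a*, chr15:82224381-82224630 (minus strand) for *Tnfrsf13c* and chr5:88527898-88528147 (minus strand) for *Jchain*. The RefSeq start of *Cd79a* lies inside the gene span given above, so part of its window falls within that span.
Cd79a: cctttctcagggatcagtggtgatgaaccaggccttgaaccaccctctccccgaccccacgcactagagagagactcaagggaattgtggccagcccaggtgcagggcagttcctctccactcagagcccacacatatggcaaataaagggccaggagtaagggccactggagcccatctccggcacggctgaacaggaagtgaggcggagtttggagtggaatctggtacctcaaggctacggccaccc
Tnfrsf13c: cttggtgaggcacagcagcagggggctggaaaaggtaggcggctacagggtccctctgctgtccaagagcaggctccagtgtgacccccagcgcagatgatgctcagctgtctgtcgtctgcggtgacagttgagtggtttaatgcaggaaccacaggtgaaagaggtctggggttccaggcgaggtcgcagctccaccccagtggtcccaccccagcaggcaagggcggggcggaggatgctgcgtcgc
Jchain: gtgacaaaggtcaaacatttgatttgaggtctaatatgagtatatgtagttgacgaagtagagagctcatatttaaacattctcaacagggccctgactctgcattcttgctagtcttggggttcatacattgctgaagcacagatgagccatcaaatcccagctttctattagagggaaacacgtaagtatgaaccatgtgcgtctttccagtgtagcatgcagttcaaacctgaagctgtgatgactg
The motifs searched, on both strands, were the Ig octamer ATTTGCAT, the EBF1 site CCCNNGGGA and the unfolded protein response element TGACGTGG. Of 32851 windows of the same length, 1.60% held the octamer, 5.60% the EBF1 letters and 0.563% the response element. A missing match says only that these letters are not in this window.

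*Jchain*, *Igkc* and *Ighm* varied most among libraries, with SDs of 0.73, 0.68 and 0.31 over the 36. *Jchain* ranged from a score of -0.15 in 4T1 tumor replicate 2 at 6 w p.i. to 2.40 in C57BL/6 Matrigel gland replicate 3 at 6 w p.i., with a median of 1.87 over the 36 libraries. *Igkc* ranged from 0.37 in the same 4T1 tumor to 2.78 in C57BL/6 Matrigel gland replicate 1 at 1 w p.i. (median 2.24). *Ighm* went from 0.17 in 4T1 tumor replicate 1 at 6 w p.i. to 1.69 in 4T1 tumor replicate 1 at 3 w p.i. (median 0.95). The lowest scores of these 3 antibody genes were thus all in 4T1 tumors at 6 w p.i.

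The remaining members stayed within a narrower band. *Mzb1* scores lay between -1.22 and -0.32 and *Cd79a* scores between -1.26 and -0.30, both with their highest value in C57BL/6 Matrigel glands at 6 w p.i. *Cd79b* lay between -1.05 and -0.21, and *Tnfrsf13c* between -1.50 and -0.93. *Ms4a1* had the smallest scores, from -1.67 in Py230 tumor replicate 3 at 3 w p.i. to -0.98 in 4T1 tumor replicate 1 at 3 w p.i. The mean scores of *Ms4a1* and *Tnfrsf13c* were at the 9.0th and 15.6th percentile of all genes, and those of *Jchain* and *Igkc* at the 98.0th and 99.5th.

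**Figure D1:**
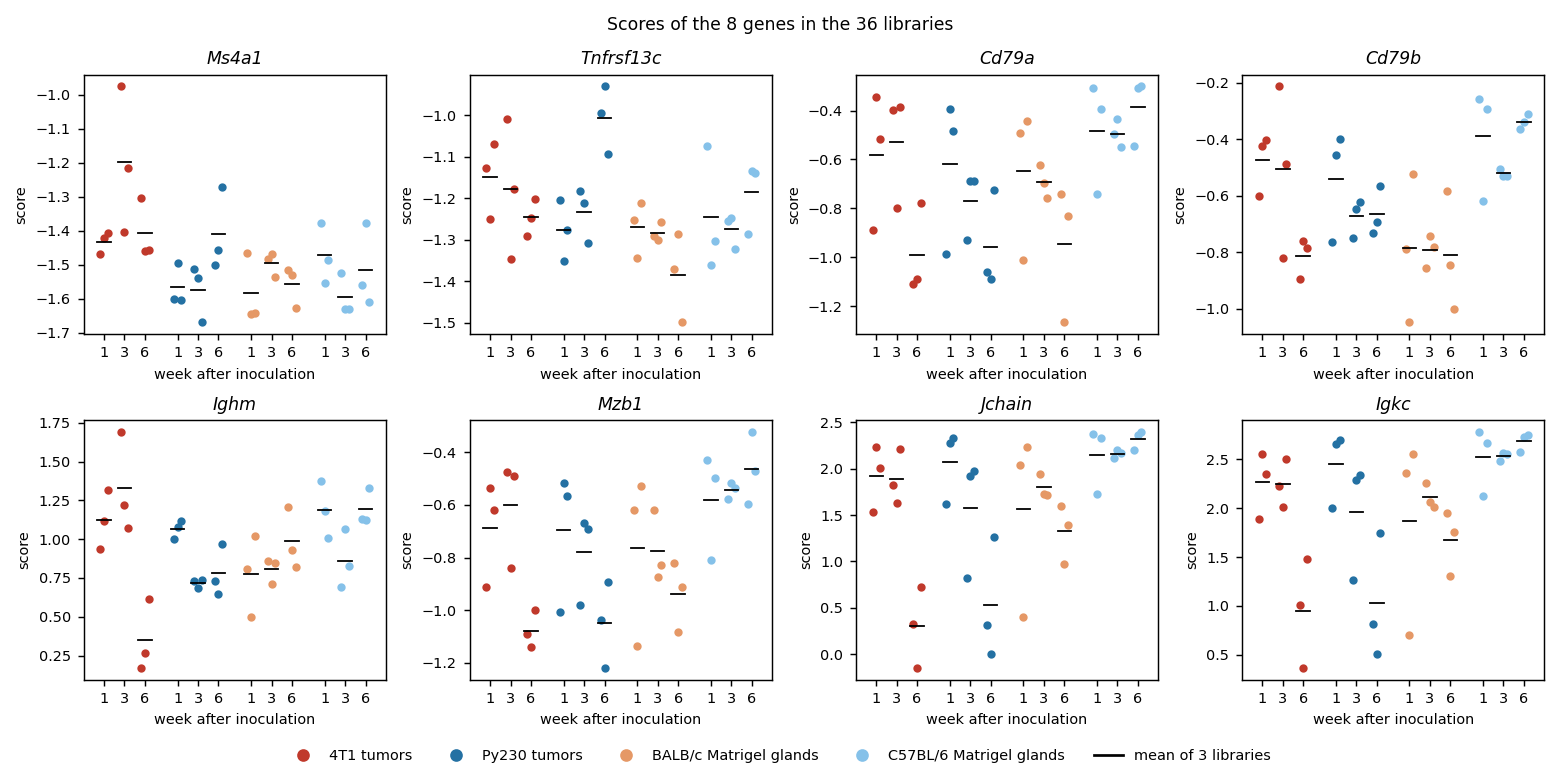
Score of each of the 8 genes (y axis, standardized score units) at 1, 3 and 6 weeks after inoculation (x axis), with 1 point per library and a bar at the mean of the 3 libraries of a group, colored by tumor line or gland strain. *Jchain*, *Igkc* and *Ighm* are lowest in 4T1 tumors at week 6, and *Ms4a1* is highest in 1 of the 4T1 tumors at week 3, at -0.98.

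Group means of *Jchain* ran from 0.30 ± 0.44 (SD, n = 3, as throughout) in 4T1 tumors at 6 w p.i. to 2.32 ± 0.10 in C57BL/6 Matrigel glands at 6 w p.i. Next above the 4T1 tumors came the Py230 tumors at 6 w p.i. (0.53 ± 0.66), BALB/c Matrigel glands at 6 w p.i. (1.33 ± 0.32) and at 1 w p.i. (1.56 ± 1.01) and Py230 tumors at 3 w p.i. (1.57 ± 0.65). The other 7 groups had means of 1.80 or more. The tumors of both lines at 6 w p.i. overlapped each other, and the neighbors above 1.33 in this order did not differ beyond their spread. *Igkc* followed the same order at its low end, with 0.95 ± 0.56 in 4T1 and 1.03 ± 0.64 in Py230 tumors at 6 w p.i., 1.67 ± 0.33 in BALB/c Matrigel glands at 6 w p.i., and 2.68 ± 0.10 at its top in C57BL/6 Matrigel glands at 6 w p.i.

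A single BALB/c gland stood apart within its group. At 1 w p.i. the BALB/c Matrigel glands had *Jchain* scores of 2.05, 0.40 and 2.24 and *Igkc* scores of 2.36, 0.71 and 2.55, replicate 2 being the low one for both. The same library was lowest of its group for *Cd79a* (-1.01 against -0.49 and -0.44) and *Mzb1* (-1.14 against -0.62 and -0.53). Its mean score over 5 adipocyte genes, 2.01, was beside 1.97 and 1.76 in the other 2 glands. All comparisons that used this group are given with it.

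Across libraries *Jchain*, *Igkc*, *Mzb1* and *Cd79a* formed a tight group, and *Ms4a1* and *Tnfrsf13c* went their own way. Over the 36 libraries Pearson's r was 0.99 between *Jchain* and *Igkc*, 0.96 between *Cd79a* and *Mzb1* and 0.92 between *Jchain* and *Mzb1*. The B cell receptor gene *Cd79a* tracked *Jchain* (r 0.88) more closely than it tracked *Ms4a1* (r 0.15). *Ighm* and *Cd79b* lay in between, with r 0.67 and 0.66 to *Jchain*. *Ms4a1* had r -0.06 with *Jchain* and 0.48 with *Tnfrsf13c*, while *Tnfrsf13c* had r -0.17 with *Jchain*. These are descriptions over libraries that share groups and a common standardization, and were not tested.

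Within the 18 tumors and within the 18 Matrigel glands taken separately, *Jchain*, *Igkc*, *Mzb1* and *Cd79a* kept their high r. *Jchain* and *Igkc* had r 0.99 in tumors and 1.00 in glands, and *Cd79a* and *Mzb1* 0.96 and 0.95. *Tnfrsf13c* and *Jchain*, by contrast, had r -0.35 in tumors and 0.58 in glands. With *Cd79a*, *Cd79b*, *Mzb1* and *Igkc*, *Tnfrsf13c* had r 0.63, 0.65, 0.66 and 0.57 in glands. The values in tumors were -0.19, 0.21, -0.24 and -0.38. Outside the members, *Igha*, the IgA heavy chain constant gene, had r 0.99 with *Jchain* over all libraries.

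**Figure D2:**
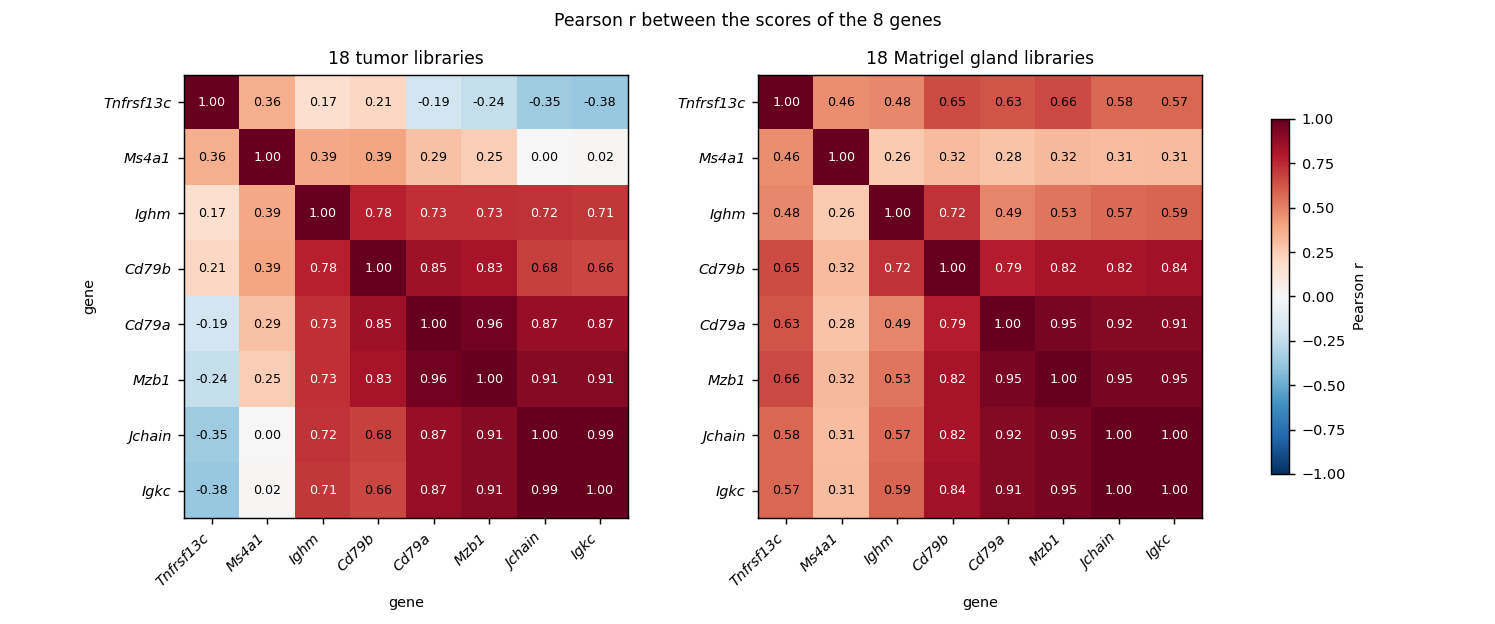
Pearson r between the scores of each pair of the 8 genes (both axes) within the 18 tumor libraries (left) and the 18 Matrigel gland libraries (right), colored from -1 to 1. *Jchain*, *Igkc*, *Mzb1* and *Cd79a* form 1 block of high r in both panels, and *Tnfrsf13c* with *Jchain* goes from -0.35 in tumors to 0.58 in glands.

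By the rule for likeness, the 5 genes nearest to the mean profile of the 4 B cell members were *Grap2* (r 0.87), *Ms4a4b* (0.86), *Dock10* (0.85), *Cd28* (0.85) and *Edem1* (0.85) over the 36 libraries. *Cd28* encodes a co-stimulatory receptor of T cells and *Grap2* an adaptor of T cell receptor signaling. Nearest to the mean profile of *Jchain* and *Mzb1* were *Igha* and 4 Ig joining segments (*Igkj2*, *Ighj4*, *Ighj2* and *Igkj5*), all with r 0.97. The nearest gene that is no Ig gene was *Derl3*, which encodes a protein of endoplasmic reticulum quality control (r 0.93).

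Genes of lymph node stroma were read in every library, since a mammary fat pad may hold a lymph node. *Ccl21a*, the chemokine of the T cell zone and lymphatic vessels, varied widely within groups, for example -1.50, -0.19 and -1.32 in the 4T1 tumors at 3 w p.i. and -0.25, -1.43 and -0.83 in the C57BL/6 Matrigel glands at 3 w p.i. The 4T1 tumor with the highest *Ms4a1* score, replicate 1 at 3 w p.i., had one of the lower *Ccl21a* scores, -1.50, and the 4T1 tumor with the high *Ccl21a* score, replicate 2, had the lowest *Ms4a1* score of its group, -1.41. Over the 36 libraries *Ccl21a* had r -0.05 with *Ms4a1* and 0.17 with *Jchain*. It was not called in any of the 23 comparisons. *Cr2*, a receptor of follicular dendritic cells and B cells, and the node vessel gene *Chst4* were not in the score table, with deposited mean normalized counts of 4.47 and 1.39. *Ccl19*, a second T zone chemokine, had scores from -1.87 to -1.54 in all libraries. The part of lymph node tissue in the B cell scores was not tested.

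**Figure D3:**
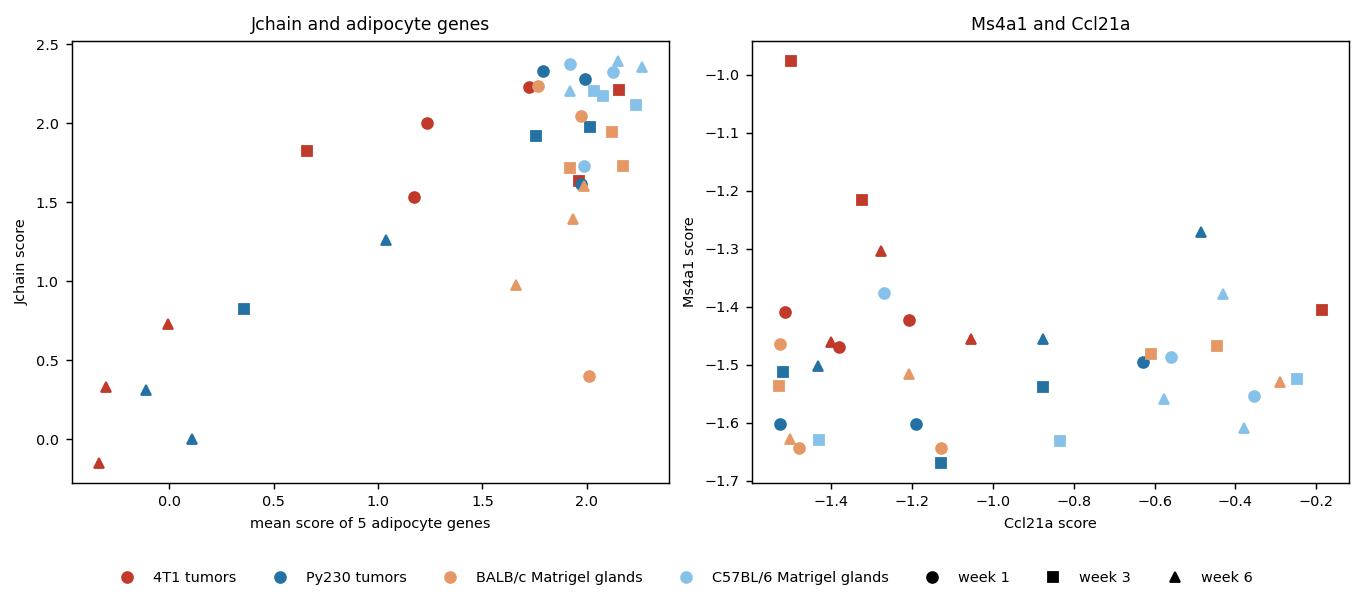
Left, *Jchain* score (y axis) against the mean score of 5 adipocyte genes (x axis), and right, *Ms4a1* score (y axis) against *Ccl21a* score (x axis), with 1 point per library, colored by tumor line or gland strain and shaped by week. On the left the tumors at week 6 hold the low corner, apart from a Py230 tumor with a *Jchain* score of 1.26. A Py230 tumor at week 3, at 0.82, lies nearer to that corner. Among the glands, 1 BALB/c gland at week 1 lies below the others at 0.40. On the right the 4T1 tumor with the highest *Ms4a1* score has a *Ccl21a* score of -1.50.

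From 3 to 6 w p.i. the antibody genes fell in 4T1 tumors. *Jchain* went from 1.82, 1.64 and 2.21 to 0.33, -0.15 and 0.73, a difference of -1.59 (SE 0.37, 95% interval -2.35 to -0.83, adjusted p = 0.000834). *Igkc* went from 2.23, 2.01 and 2.50 to 1.01, 0.37 and 1.48 (difference -1.30, adjusted p = 0.00486), and *Ighm* from 1.69, 1.22 and 1.07 to 0.17, 0.26 and 0.61 (difference -0.98, adjusted p = 4.89e-06). *Mzb1* went from -0.47, -0.84 and -0.49 to -1.09, -1.14 and -1.00 (difference -0.48, adjusted p = 0.00841). For these 4 genes every tumor at 6 w p.i. was below every tumor at 3 w p.i., which held for 19.4% of all genes. In bulk tissue, fewer plasma cells and less antibody RNA per cell cannot be told apart.

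In the same comparison *Cd79a* (-0.46, adjusted p = 0.0267), *Cd79b* (-0.31, adjusted p = 0.0466) and *Ms4a1* (-0.21, adjusted p = 0.0328) were called lower although the libraries of both weeks overlapped. *Tnfrsf13c* was not called (-0.07, 95% interval -0.22 to 0.09). In all, 7 of the 8 members were lower, while 53% of all genes were called in either direction and 18.8% lower. The median difference of the members was -0.47, that of all genes 0.05. The calls of *Ms4a1* and *Cd79b* depended on 4T1 tumor replicate 1 at 3 w p.i., without which the differences were -0.10 and -0.16 and not called. The *Cd79b* difference was -0.46 without replicate 2 of that group, and the *Cd79a* call was lost without replicate 1 or 3 at 3 w p.i. or replicate 1 or 2 at 6 w p.i.

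Other genes of the B lineage fell in 4T1 tumors over the same weeks. Of 21 B cell genes tested, 12 were lower and 0 higher from 3 to 6 w p.i. (median difference -0.24). Of all genes, 53% were called in that comparison and 18.8% were lower. The 12 include the members *Ms4a1*, *Cd79a* and *Cd79b*, and the others were led by the transcription factor gene *Ebf1* (-0.84, adjusted p = 3.4e-05), which adipocytes also express, the tetraspanin gene *Cd37* (-0.61, adjusted p = 0.0001), *Spib* (-0.68, adjusted p = 0.0031) and *Fcrla* (-0.46, adjusted p = 0.0038). Of 13 plasma cell genes, 8 were lower and 2 higher, *Jchain* and *Mzb1* among the lower. *Irf4*, a transcription factor needed by plasma cells and also used by adipocytes and T cells, had scores of 1.07, 0.94 and 0.69 at 3 w p.i. and -0.44, -0.37 and -0.25 at 6 w p.i. (difference -1.26, adjusted p = 3.1e-08). The genes that rose, *Fkbp11* (0.43) and *Sdc1* (0.58), are also expressed by secretory and epithelial cells.

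Markers of other tissue parts moved over the same weeks. All 5 adipocyte genes were lower in 4T1 tumors at 6 w p.i. than at 3 w p.i. (median difference -1.97), as were all 5 milk genes (-2.40) and 2 of 5 skeletal muscle genes (-1.87). Of all genes, 53% were called there and 18.8% were lower. The mean adipocyte score was 0.66, 1.96 and 2.16 in the 4T1 tumors at 3 w p.i. and -0.30, -0.34 and -0.01 at 6 w p.i. Of 7 myeloid genes 3 were higher and 2 lower at 6 w p.i., the higher ones being the neutrophil genes *S100a8* (1.33), *S100a9* (1.35) and *Ly6g* (0.42). Of 5 epithelial genes 2 were higher, the luminal keratin genes *Krt8* (0.38) and *Krt18* (0.32), and 2 lower, led by the basal keratin gene *Krt5* (-1.26). Replicate 1 at 3 w p.i. had a low adipocyte score and a *Jchain* score of 1.82, inside the range of its group. Over the 18 tumors *Jchain* had r 0.90 with the adipocyte gene *Adipoq*, and over the 18 glands 0.33. The part of the tissue makeup in the fall of the antibody genes was not tested.

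Against the Matrigel glands of the same week and strain, the 4T1 tumors were lower for *Jchain* and *Ighm* at 6 w p.i. *Jchain* was 0.33, -0.15 and 0.73 in the tumors and 1.60, 0.98 and 1.40 in the BALB/c glands, without overlap (difference -1.02, SE 0.37, 95% interval -1.78 to -0.26, adjusted p = 0.0201). *Ighm* was 0.17, 0.26 and 0.61 against 1.21, 0.93 and 0.82 (difference -0.64, adjusted p = 0.000612). *Igkc* differed by -0.72 and was not called (95% interval -1.48 to 0.04, adjusted p = 0.0968), with tumor replicate 3 (1.48) above gland replicate 2 (1.31). These were 2 of 8 members, both lower, where 60.1% of all genes were called and 21.5% were lower. The *Jchain* call was lost without 4T1 tumor replicate 2 (-0.80, adjusted p = 0.11) or BALB/c gland replicate 1 (-0.88, adjusted p = 0.076).

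*Cd79a*, *Cd79b* and *Mzb1* were not called in this comparison, and whether they differed from the antibody genes in their change was not tested. *Cd79a* was -1.11, -1.09 and -0.78 in the 4T1 tumors and -0.74, -1.26 and -0.83 in the BALB/c glands at 6 w p.i. (difference -0.05, 95% interval -0.40 to 0.31). *Cd79b* differed by 0.00 (95% interval -0.27 to 0.26). *Mzb1* was -1.09, -1.14 and -1.00 in the tumors and -0.82, -1.08 and -0.91 in the glands (difference -0.14, adjusted p = 0.427). *Ms4a1* was higher in every tumor than in every gland (-1.30, -1.46 and -1.46 against -1.52, -1.53 and -1.63) without being called (0.15, adjusted p = 0.11). Over the 21 B cell genes the median difference was 0.03, with 3 genes higher and 2 lower. Of all genes, 60.1% were called in that comparison and 21.5% were lower.

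Py230 tumors at 6 w p.i. showed the larger set of differences from their glands. *Jchain* was 0.31, 0.00 and 1.26 in the tumors and 2.21, 2.36 and 2.40 in the C57BL/6 glands (difference -1.79, SE 0.37, 95% interval -2.56 to -1.03, adjusted p = 0.000313). *Igkc* was 0.82, 0.51 and 1.75 against 2.57, 2.73 and 2.75 (difference -1.66, 95% interval -2.42 to -0.90, adjusted p = 0.00068). *Mzb1* was -1.04, -1.22 and -0.89 against -0.60, -0.32 and -0.47 (difference -0.59, adjusted p = 0.00197). In none of the 3 genes did a tumor reach the lowest gland, as for 26.3% of all genes, and Py230 tumor replicate 3 was the highest tumor for each.

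*Cd79a* was lower by a similar amount in Py230 tumors, with -1.06, -1.09 and -0.72 against -0.54, -0.31 and -0.30 (difference -0.57, adjusted p = 0.0081). *Ighm* (-0.41, adjusted p = 0.0228) and *Cd79b* (-0.33, adjusted p = 0.0384) were lower too, and *Tnfrsf13c* was higher (0.18, adjusted p = 0.0498), with -0.99, -0.93 and -1.09 in the tumors and -1.29, -1.13 and -1.14 in the glands. *Ms4a1* was not called (0.11, 95% interval -0.06 to 0.27). Thus 7 of 8 members were called, 6 lower and 1 higher, where 47.6% of all genes were called, 18.7% lower and 28.8% higher. The calls of *Ighm*, *Cd79b* and *Tnfrsf13c* were lost without Py230 tumor replicate 1 (-0.39, -0.29 and 0.17) or replicate 2 (-0.35, -0.31 and 0.14). They were also lost without C57BL/6 gland replicate 3 (-0.35, -0.31 and 0.20), and those of *Cd79b* and *Tnfrsf13c* without gland replicate 1 (-0.34 and 0.13) or 2 (-0.33 and 0.21).

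Tissue markers again moved with these differences. In Py230 tumors at 6 w p.i. all 5 adipocyte genes were lower than in the glands (median difference -1.73), with mean adipocyte scores of -0.11, 0.11 and 1.04 in the tumors and 1.92, 2.26 and 2.15 in the glands. Replicate 3, the tumor with the highest *Jchain* score, also had the highest adipocyte score. Of the 5 milk genes 1 was higher and 2 lower, and 0 of 5 skeletal muscle genes was called. For the 4T1 tumors against BALB/c glands at 6 w p.i. the adipocyte genes had a median difference of -2.17 and the muscle genes of -2.65, all 5 lower in each list, and 4 of 5 milk genes were lower. Epithelial genes gave 1 higher and 2 lower of 5 in 4T1 and 1 higher and 0 lower of 5 in Py230 tumors. Of all genes, 60.1% were called against glands in 4T1 and 47.6% in Py230 tumors at that time, 21.5% and 18.7% lower. The part of the tissue makeup in these results was not tested.

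Whether both tumors differed from their own glands by unequal amounts was tested directly. At 6 w p.i. none of the 8 members was called in this comparison, where 25.5% of all genes were, with 2 members (*Cd79a* and *Mzb1*) at an unadjusted p under 0.05. The 4T1-minus-gland difference less the Py230-minus-gland difference was 0.77 for *Jchain* (95% interval -0.31 to 1.85), 0.94 for *Igkc* (-0.14 to 2.02) and -0.23 for *Ighm* (-0.65 to 0.20). The intervals leave room for differences of over 1 score unit for the first pair of genes.

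**Figure D4:**
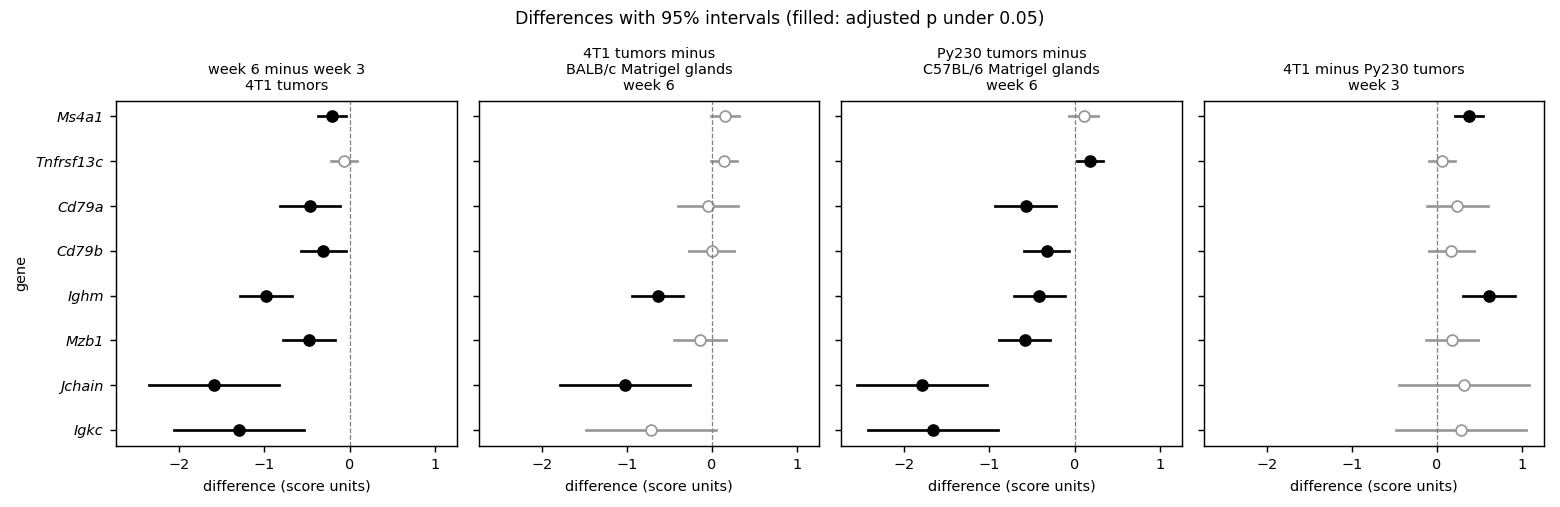
Difference of mean scores (x axis, score units) with 95% intervals from limma for the 8 genes (y axis) in 4 comparisons, filled where the adjusted p was under 0.05. *Jchain* lies at -1.59, -1.02 and -1.79 in the first 3 panels. In 4T1 compared to Py230 tumors at week 3 all the genes lie above 0, and only *Ms4a1* and *Ighm* are filled.

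At 3 w p.i. 4T1 tumors had more *Ms4a1* and *Ighm* than Py230 tumors. *Ms4a1* was -0.98, -1.41 and -1.22 in 4T1 and -1.51, -1.54 and -1.67 in Py230 tumors (difference 0.37, SE 0.08, 95% interval 0.21 to 0.54, adjusted p = 0.00103). *Ighm* was 1.69, 1.22 and 1.07 against 0.73, 0.69 and 0.74 (difference 0.61, SE 0.15, 95% interval 0.31 to 0.91, adjusted p = 0.00266). Neither gene overlapped between the lines, where 13.9% of all genes were higher in every 4T1 tumor. They were 2 of 8 members, both higher, where 30.3% of all genes were called and 11.9% higher. *Jchain* (0.32, 95% interval -0.45 to 1.08), *Igkc* (0.28) and *Cd79a* (0.24) were not called. With only the 6 tumors of that week in the fit, both calls were lost (adjusted p = 0.14 and 0.10).

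The same 2 genes were higher in these 4T1 tumors than in BALB/c Matrigel glands at 3 w p.i., by 0.30 for *Ms4a1* (adjusted p = 0.0451) and 0.52 for *Ighm* (adjusted p = 0.0491), where 3.25% of all genes were called and 2.1% higher. The glands had *Ms4a1* scores of -1.48, -1.47 and -1.54 and *Ighm* scores of 0.86, 0.71 and 0.85. Both calls were lost without 4T1 tumor replicate 1 (0.18 and 0.34) and without any 1 of the 3 glands (0.28 to 0.31 and 0.47 to 0.55). The comparison shares its 4T1 tumors with the one against Py230 tumors.

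For *Ighm* the difference between the lines held at 3 w p.i. when each was taken against its own glands. The 4T1-minus-gland difference exceeded the Py230-minus-gland difference by 0.67 (SE 0.21, 95% interval 0.24 to 1.09, adjusted p = 0.0437), 1 member of 8, where 9.15% of all genes were called and 2.64% positive. It was lost in 8 of the 12 fits that left out 1 library (0.49 to 0.79), and without 4T1 tumor replicate 1 it was 0.49. *Ms4a1* differed by 0.27 and was not called (95% interval 0.04 to 0.51, adjusted p = 0.129). At 1 w p.i. 0 members were called in this comparison of differences (0.305% of all genes), with *Ms4a1*, *Cd79b* and *Ighm* at an unadjusted p under 0.05.

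Replicate 1 of the 4T1 tumors at 3 w p.i. was also high for T cell and pan-leukocyte genes. The T cell gene *Cd3e* was 0.44 there and -0.52 and -0.19 in the other 2 tumors, and the pan-leukocyte gene *Ptprc* 1.93 against 1.44 in both. The mean score over 13 T cell genes was 0.48 against -0.39 and -0.03. *Cxcl13*, the chemokine that draws B cells into follicles, was 0.22, -0.18 and -0.39 in the 4T1 tumors and -0.98, -0.87 and -0.95 in the Py230 tumors (difference 0.82, adjusted p = 0.0012), a call that was kept without any 1 of the 6 tumors.

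Of 21 B cell genes tested, 7 were higher and 1 lower in 4T1 compared to Py230 tumors at 3 w p.i. (median difference 0.19). Of all genes, 30.3% were called in that comparison and 11.9% were higher. The higher ones include the member *Ms4a1* and *Cd37* (0.54, adjusted p = 0.00098). The 1 lower gene was *Pax5*, which encodes the factor that keeps B cell identity. It was -0.20, -0.68 and -0.72 in Py230 tumors and -1.00, -1.40 and -1.15 in 4T1 tumors (difference -0.65, adjusted p = 0.00037). *Pax5* was also above the C57BL/6 glands (-1.50, -1.47 and -1.48) in Py230 tumors at 3 w p.i. (0.95, adjusted p = 1.6e-05) and at 6 w p.i. (0.74, adjusted p = 3.9e-05), at weeks when *Ms4a1* was not called and *Cd79a* was not called or lower against those glands.

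Of 8 lymph node tissue genes, 3 were higher and 1 lower in 4T1 compared to Py230 tumors at 3 w p.i., where 30.3% of all genes were called. Among the higher ones were *Cxcl13* and *Ltb* (0.61, adjusted p = 0.004), which lymphocytes themselves express. The lower one was *Madcam1* (-0.30, adjusted p = 0.01), a vessel gene, not called without 4T1 tumor replicate 1 (-0.23) or Py230 tumor replicate 1 (-0.26). Of 13 T cell genes 2 were higher in that comparison, and 10 of 13 were higher in 4T1 tumors than in BALB/c glands at 3 w p.i. Against those glands 3.25% of all genes were called and 2.1% were higher. With only the libraries compared in the fit, 0 of all genes were called against them, so those 10 calls were lost. Of 7 myeloid genes 4 were higher and 0 lower between the lines at that time, and of 3 pan-leukocyte genes 1 was higher and 0 lower in 4T1 tumors against their glands.

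At 1 w p.i. the members gave no call between tumors, or between tumors and glands. *Jchain* was 1.53, 2.23 and 2.01 in 4T1 and 1.62, 2.28 and 2.33 in Py230 tumors (difference -0.15, 95% interval -0.92 to 0.61), and *Ms4a1* was slightly higher in each 4T1 tumor (-1.47, -1.42 and -1.41 against -1.60, -1.49 and -1.60) with a difference of 0.13 (95% interval -0.03 to 0.30). In that comparison 19.4% of all genes were called. Against the glands of their strain the shares were 16.6% for 4T1 and 0.00924% for Py230 tumors, again with 0 members by limma. At an unadjusted p under 0.05, *Cd79b* (0.31) and *Ighm* (0.35) differed between 4T1 tumors and BALB/c glands and 0 members between Py230 tumors and C57BL/6 glands or between the lines. Without BALB/c gland replicate 3, 2 members were called in that comparison.

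T cell genes were called at that time. At 1 w p.i. 8 of 13 T cell genes were higher in 4T1 compared to Py230 tumors and 9 of 13 compared to BALB/c glands, 0 lower in each. Of all genes, 19.4% and 16.6% were called in these comparisons. With only the libraries compared in the fit, 0 of all genes were called against BALB/c glands, so those 9 calls were lost. *Cd3e* was 0.03, -0.32 and 0.04 in 4T1 tumors, -0.87, -0.67 and -0.66 in Py230 tumors and -0.67, -0.85 and -0.74 in BALB/c glands. B cell genes gave 6 higher and 0 lower of 21 between the lines, none of them a member.

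Between the lines at 6 w p.i., 2 of 8 members were called, both lower in 4T1, where 40.8% of all genes were called and 16.7% lower. *Tnfrsf13c* was -1.29, -1.25 and -1.20 in 4T1 tumors and -0.99, -0.93 and -1.09 in Py230 tumors, without overlap (difference -0.24, SE 0.07, adjusted p = 0.0114). *Ighm* was 0.17, 0.26 and 0.61 against 0.73, 0.65 and 0.97, also without overlap (difference -0.43, adjusted p = 0.0202), while 23.2% of all genes were lower in every 4T1 tumor. The sign of *Ighm* between the lines was thus positive at 3 w p.i. and negative at 6 w p.i. *Jchain* (-0.22, 95% interval -0.98 to 0.54) and *Igkc* (-0.07, 95% interval -0.84 to 0.69) were not called. The *Tnfrsf13c* call was lost without Py230 tumor replicate 2 (-0.20), and the *Ighm* call without 4T1 tumor replicate 1 (-0.34) or 2 (-0.39) or Py230 tumor replicate 3 (-0.34).

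Py230 tumors at 3 w p.i. did not give a member call against their glands, although 19.7% of all genes were called. *Jchain* was 0.82, 1.92 and 1.98 in the tumors and 2.12, 2.20 and 2.17 in the glands, lower in each tumor (difference -0.59, 95% interval -1.35 to 0.17), and replicate 1, the lowest, had a mean adipocyte score of 0.36 beside 1.76 and 2.02. *Cd79a*, *Cd79b*, *Mzb1* and *Igkc* were likewise lower in every tumor than in every gland and not called. Such separation was found for 16.8% of all genes. No member reached an unadjusted p of 0.05 there.

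Over time, the Py230 tumors gave no member call from 1 to 3 w p.i. (20% of all genes called) or from 3 to 6 w p.i. (6.03%). From 3 to 6 w p.i. *Jchain* differed by -1.05 (95% interval -1.81 to -0.29, adjusted p = 0.0946) and *Igkc* by -0.94 (adjusted p = 0.137), and *Tnfrsf13c* by 0.23 with every tumor at 6 w p.i. above every tumor at 3 w p.i. (adjusted p = 0.069). At an unadjusted p under 0.05 these 3 members differed. Without replicate 1 at 3 w p.i. or replicate 3 at 6 w p.i., 3 members were called. Between 1 and 3 w p.i. *Ighm* was lower in every Py230 tumor (1.00, 1.08 and 1.12 to 0.73, 0.69 and 0.74, difference -0.35, adjusted p = 0.0937), the 1 member at an unadjusted p under 0.05. In 4T1 tumors from 1 to 3 w p.i. 0 members were called (0.628% of all genes), with *Ms4a1* at 0.23 (adjusted p = 0.15) the 1 member at an unadjusted p under 0.05.

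The Matrigel glands gave no member call over the weeks. In BALB/c glands 0 members were called from 1 to 3 w p.i. (0.0139% of all genes) and from 3 to 6 w p.i. (0%), none of them at an unadjusted p under 0.05. In C57BL/6 glands 0 members were called in either step (0.129% and 0.217%), while *Ighm* differed by -0.33 and then by 0.33 at an unadjusted p under 0.05. *Jchain* in C57BL/6 glands was 2.37, 1.73 and 2.33 at 1 w p.i., 2.12, 2.20 and 2.17 at 3 w p.i. and 2.21, 2.36 and 2.40 at 6 w p.i.

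Between the strains, 1 member was called, lower in BALB/c glands. At 6 w p.i. *Cd79b* was -0.58, -0.85 and -1.00 in BALB/c and -0.36, -0.34 and -0.31 in C57BL/6 glands (difference -0.47, adjusted p = 0.0323), 1 of 8 members, where 3.84% of all genes were called and 2.18% lower. *Jchain* (-1.00, adjusted p = 0.169), *Igkc* (-1.01, adjusted p = 0.16), *Cd79a* (-0.56, adjusted p = 0.071) and *Mzb1* (-0.47, adjusted p = 0.0744) were also lower in every BALB/c gland than in every C57BL/6 gland at 6 w p.i., and none of them was called. Over all genes 11.6% were lower in every BALB/c gland. The *Cd79b* call was lost without BALB/c gland replicate 2 (-0.45) or 3 (-0.38) or any 1 of the C57BL/6 glands (-0.48 to -0.46). At 1 w p.i. (3.06% of all genes) and 3 w p.i. (3.77%) 0 members were called by limma, with *Cd79b* at -0.40 and -0.27 and, at 1 w p.i., *Ighm* at -0.41 having an unadjusted p under 0.05.

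Which antibody classes moved was read from 11 Ig constant genes. *Igha* behaved as *Jchain* did. It was 2.42, 2.34 and 2.89 in 4T1 tumors at 3 w p.i. and 0.82, 0.41 and 1.16 at 6 w p.i. (difference -1.75, adjusted p = 0.0003), and it was lower than in the glands at 6 w p.i. in 4T1 tumors (-1.22, adjusted p = 0.0062) and in Py230 tumors (-1.72, adjusted p = 0.00046). These 3 calls were kept in all 12 alternatives. The lambda light chain gene *Iglc1* was lower in the same 3 comparisons (-1.46, -0.94 and -1.54).

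IgG genes were scored higher in 4T1 tumors than in Py230 tumors or their own glands in several comparisons. From 3 to 6 w p.i. in 4T1 tumors none of them was called, with *Ighg1* at -0.67 (adjusted p = 0.056), *Ighg2b* at -0.46, *Ighg3* at -0.44 and *Ighg2c* at 0.15. *Ighg1*, the IgG1 constant gene, was -0.59, -0.36 and -0.25 at 1 w p.i., 1.51, 0.32 and 0.79 at 3 w p.i. and 0.41, -0.57 and 0.77 at 6 w p.i. in 4T1 tumors, while Py230 tumors stayed between -1.52 and -0.60. 4T1 tumors were higher than Py230 tumors at each time, by 0.86 (adjusted p = 0.041), 2.10 (adjusted p = 7.66e-06) and 1.05 (adjusted p = 0.0052). Without any 1 library of the groups compared the difference at 3 w p.i. remained called, whereas that at 1 w p.i. was lost without any 1 of its 6 tumors (0.78 to 0.96) and that at 6 w p.i. without 4T1 tumor replicate 3 (0.77). Against BALB/c glands, *Ighg1* was higher by 1.55 at 3 w p.i. (adjusted p = 0.014, lost without 4T1 tumor replicate 1, 1.23, or BALB/c gland replicate 2, 1.57, or 3, 1.49) and by 0.82 at 6 w p.i. (adjusted p = 0.019, 0.54 and lost without 4T1 tumor replicate 3, 0.72 and lost without replicate 1, 0.65 and lost without BALB/c gland replicate 2).

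*Ighg2c* was higher in 4T1 tumors than in BALB/c glands at 6 w p.i. as well, with 0.38, -0.41 and 1.12 against -0.95, -1.31 and -1.11 (difference 1.49, adjusted p = 0.00011), kept in all 11 alternatives. It was also lower in BALB/c than in C57BL/6 glands at 6 w p.i. (-1.28, adjusted p = 0.0072). The BALB/c strain carries *Ighg2a* in the place of *Ighg2c*, and reads were counted on the C57BL/6 genome, so what the *Ighg2c* row holds in BALB/c libraries was not tested. *Ighg3* was above its Py230 level in 4T1 tumors at 3 w p.i. (1.30, adjusted p = 0.0066) through 4T1 tumor replicate 1 (1.05, -1.34 and -0.90 in the 4T1 tumors), and the difference was 0.58 and not called without it.

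By counts, 5 of the 11 Ig constant genes were higher and 0 lower in 4T1 compared to Py230 tumors at 3 w p.i. Of all genes, 30.3% were called there and 11.9% were higher. In 4T1 tumors against BALB/c glands at 6 w p.i. 4 were higher and 4 lower, the IgG genes *Ighg1*, *Ighg2b* (0.76), *Ighg2c* and *Ighg3* (0.82) on one side and *Igha*, *Iglc1*, *Ighm* and *Ighd* (-0.34) on the other. In Py230 tumors against C57BL/6 glands at 6 w p.i. 0 were higher and 5 lower. Against glands at 6 w p.i., 60.1% of all genes were called in 4T1 and 47.6% in Py230 tumors, 21.5% and 18.7% lower. *Jchain* and *Ighg1* had r -0.06 over the 36 libraries.

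**Figure D5:**
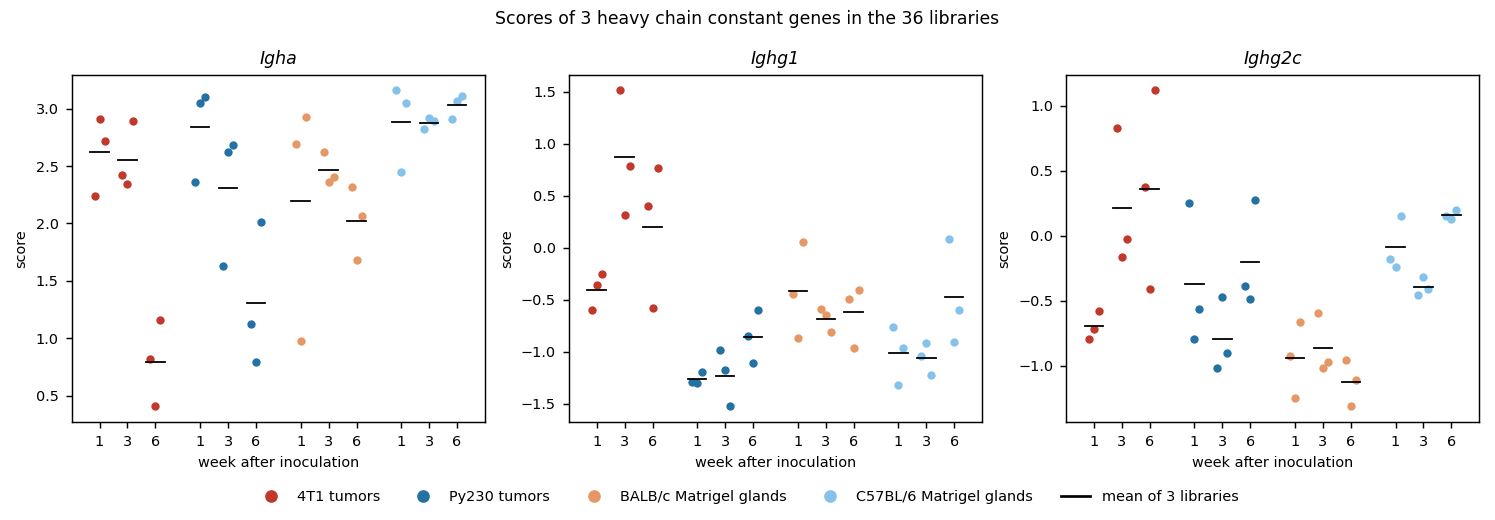
Scores of *Igha*, *Ighg1* and *Ighg2c* (y axis, standardized score units) at 1, 3 and 6 weeks after inoculation (x axis), with 1 point per library and a bar at the group mean, colored by tumor line or gland strain. *Igha* has its lowest group means in the tumors of both lines at week 6, while *Ighg1* in 4T1 tumors at week 3 reaches 1.51 and lies at or below -0.98 in Py230 tumors of that week.

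Of 13 plasma cell genes, *Jchain* and *Mzb1* included, 4 were higher and 3 lower in 4T1 tumors than in their glands at 6 w p.i. In Py230 tumors 3 were higher and 6 lower. Of all genes, 60.1% were called in 4T1 and 47.6% in Py230 tumors, 21.5% and 18.7% lower. *Mzb1* was not called in 4T1 tumors (-0.14) and lower in Py230 tumors (-0.59). *Tnfrsf17*, which encodes BCMA, the APRIL receptor of plasma cells, was -1.30, -1.28 and -1.33 in 4T1 tumors against -0.72, -0.95 and -1.03 in BALB/c glands (difference -0.40, adjusted p = 0.00056) and -1.39, -1.25 and -1.24 in Py230 tumors against -0.73, -0.61 and -0.62 in C57BL/6 glands (difference -0.64, adjusted p = 4.6e-06). *Irf4* was lower in both as well (-0.76 and -0.71). *Fkbp11* and *Sdc1* were higher in both (0.47 and 0.61 in 4T1, 0.58 and 0.63 in Py230 tumors).

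Of the BAFF and APRIL system, *Tnfsf13b*, which encodes BAFF, was not called in any of the 23 comparisons, and its scores lay between -0.42 and 0.26. Of the 5 genes of the system, 2 were higher in 4T1 compared to Py230 tumors at 1 w p.i. (*Tnfsf13*, which encodes APRIL, by 0.32 and *Tnfrsf13b* by 0.40), 1 at 3 w p.i. (*Tnfrsf13b* by 0.36), and 1 was lower at 6 w p.i. (*Tnfrsf13c*). *Tnfrsf17*, lower in both tumors against glands at 6 w p.i. as given above, was also lower from 3 to 6 w p.i. in 4T1 tumors (-0.36, adjusted p = 0.0019, kept in all 11 alternatives). In Py230 tumors it was lower from 1 to 3 w p.i. (-0.28, adjusted p = 0.035) and against glands at 3 w p.i. (-0.29, adjusted p = 0.030), and each of these calls was lost without Py230 tumor replicate 1 (-0.22 and -0.23) or 2 (-0.27 and -0.28) at 3 w p.i. The first was also lost without Py230 tumor replicate 2 (-0.23) or 3 (-0.23) at 1 w p.i., and the second without C57BL/6 gland replicate 2 (-0.25) or 3 (-0.29). Each of the 3 higher calls between the lines was lost without 1 or more of the tumors: *Tnfsf13* without 4T1 tumor replicate 3 (0.29), *Tnfrsf13b* at 1 w p.i. without 4T1 tumor replicate 1 (0.39) or 3 (0.32) or Py230 tumor replicate 1 (0.31), and *Tnfrsf13b* at 3 w p.i. without 4T1 tumor replicate 1 (0.21) or any 1 of the Py230 tumors (0.34 to 0.38).

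*Pigr*, whose receptor carries IgA into milk, differed by tumor line. It was -0.49, -0.80 and -0.69 in 4T1 tumors, 0.99, 0.42 and 1.01 in Py230 tumors, 0.48, 0.56 and 0.73 in BALB/c glands and 0.81, 0.62 and 0.61 in C57BL/6 glands at 6 w p.i. *Pigr* was lower in 4T1 tumors than in their glands (-1.25, adjusted p = 3.4e-07) and than in Py230 tumors (-1.47, adjusted p = 3.15e-08), and the 4T1-minus-gland and Py230-minus-gland differences themselves differed by -1.37 (adjusted p = 4.84e-05). At 3 w p.i. Py230 tumors had more *Pigr* than their glands (0.84, adjusted p = 0.00075). Over the 36 libraries *Pigr* had r 0.40 with *Jchain*.

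*Ccl28*, the mammary epithelial chemokine that draws IgA plasma cells through the receptor Ccr10, was -1.25, -1.20 and -1.24 in 4T1 tumors and -0.83, -0.72 and -0.79 in BALB/c glands at 6 w p.i. (difference -0.45, adjusted p = 2.2e-06). In Py230 tumors it was higher than in the glands at 3 w p.i. (0.36, adjusted p = 0.00051) and lower at 6 w p.i. (-0.18, adjusted p = 0.0251, not called without Py230 tumor replicate 1, -0.13, or 2, -0.18, or C57BL/6 gland replicate 1, -0.15, or after quantile normalization, -0.14). *Ccr10* was lower in Py230 tumors than in their glands at 6 w p.i. (-0.35, adjusted p = 0.0041). Of the 5 genes for IgA transport and homing, which include *Jchain* and *Igha*, 4 were lower and 0 higher at 6 w p.i. in each tumor against its glands. The shares of all genes called lower were 21.5% in 4T1 and 18.7% in Py230 tumors.

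The germinal center is where activated B cells divide and switch class. Of 6 tested genes of it 2 were higher and 1 lower in 4T1 compared to Py230 tumors at 3 w p.i., where 30.3% of all genes were called. The higher ones were *Gcsam* (0.53, adjusted p = 6.6e-05), with -0.23, -0.51 and -0.38 in 4T1 and -0.78, -1.01 and -0.92 in Py230 tumors, and *Mef2b* (0.21, adjusted p = 0.0089), and the lower one was *Mybl1* (-0.36, adjusted p = 0.0029). From 3 to 6 w p.i. in 4T1 tumors, where 53% of all genes were called, *Gcsam* was lower (-0.38, adjusted p = 0.00076) and *Mybl1* (0.46, adjusted p = 9.3e-05) and *Mef2b* (0.19, adjusted p = 0.0091) were higher. The *Mef2b* call was lost without 4T1 tumor replicate 1 (0.16) or 2 (0.16) at 6 w p.i. *Rgs13* was not in the score table.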

How the data were processed

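RNA from flash-frozen mammary tumors and Matrigel glands was sequenced as stranded, paired-end libraries. The authors aligned reads to mm10 with STAR, counted them per gene with summariseOverlaps and ran DESeq2, with versions not given in the sources used here. The deposited score table held 1 score per gene and library for 21650 genes and 36 libraries, each library with mean 0 and SD 1. How the scores were standardized is not given in the sources used here. Scores are no counts, so no count model was used and depth is unknown. The authors' mean normalized count per gene was read from their result tables, whose fold changes and p-values were not used. The number of unmapped columns was 0.

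Groups came from the labels, 12 of 3 libraries. The labels number the tumors or glands of a group without saying that they came from separate animals, so p-values measure the spread between these libraries, which may be technical. Scores were fitted with limma 3.58.1 in R 4.3.3 with 12 group means, trend and robust moderation. Differences were taken in 23 contrasts, with Benjamini-Hochberg adjustment over 21650 genes and a threshold of 0.05. The fit was tested on simulated data first.

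The 8 members and the gene lists were chosen with earlier results of these data known. Named genes were all members, at most 4 per list by smallest p in the contrast described, a set of 10 B cell, chemokine and leukocyte genes (1 is not reported here), and the 5 genes with the highest Pearson r to each member profile. Other genes named (*Ebf1*, *Pax5*, *Irf4*, *Fkbp11*, *Sdc1*, *Derl3*, *Tnfrsf17*, *Ccl19*, the IgG genes and the like) were members of the lists, and where they fell outside the rule they were chosen after their values were seen. Lists were B cell, plasma cell, Ig constant, germinal center, BAFF and APRIL, IgA transport and homing, lymph node tissue, T cell, myeloid, pan-leukocyte, adipocyte, epithelium, milk and skeletal muscle genes. Alternatives were a fit of only the libraries compared, no trend or robust moderation, quantile or cyclic loess normalization, genes at or above the median mean score, a replicate block, and leaving out each library. Whether replicate numbers pair the libraries was checked by the correlation of deviations from group means: of 60 same-numbered pairs 23 had r above 0.1 (range -0.466 to 0.789), and all pairs passed in 2 of 20 comparisons.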

Additional observations from a re-analysis of the deposited data

Results flagged for a closer look

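In 14 tests the 4T1-minus-gland difference and the Py230-minus-gland difference were themselves called different by limma (adjusted over 21650 genes). They are given as values. The genes looked at were the members, the set of named genes and the Ig constant genes, with *Pax5* and *Mef2b* added. Of all genes, 0.305% were called in this comparison at 1 w p.i., 9.15% at 3 w p.i. and 25.5% at 6 w p.i. Groups held 3 libraries, so single libraries were not tested as outliers.

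At 3 w p.i. *Ighm* differed by 0.67 (adjusted p = 0.0437), with a 4T1-minus-gland difference of 0.52. The IgG genes *Ighg1* (1.73, adjusted p = 0.0117), *Ighg2b* (1.21, adjusted p = 0.0419) and *Ighg2c* (1.47, adjusted p = 0.0254) differed in the same direction at 3 w p.i. At 6 w p.i. they differed by 1.20 (*Ighg1*, adjusted p = 0.0345), 1.11 (*Ighg2b*, adjusted p = 0.0305) and 1.84 (*Ighg2c*, adjusted p = 0.00139). The *Ighg2c* test at 6 w p.i. was kept in every alternative, and the *Ighg1* test at 3 w p.i. was lost with only the libraries compared in the fit (adjusted p = 0.068).

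The epithelial genes of IgA transport differed in the opposite direction. *Pigr* differed by -0.75 at 3 w p.i. (adjusted p = 0.0364) and by -1.37 at 6 w p.i. (adjusted p = 4.84e-05), the latter kept in every alternative. *Ccl28* differed by -0.50 at 3 w p.i. (adjusted p = 0.00162) and by -0.27 at 6 w p.i. (adjusted p = 0.0320).

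The B cell gene *Pax5* differed by -0.73 at 3 w p.i. (adjusted p = 0.0131) and by -0.53 at 6 w p.i. (adjusted p = 0.0302). The test at 3 w p.i. was lost without Py230 tumor replicate 1 (-0.56). The test at 6 w p.i. was lost without 4T1 tumor replicate 1 or 3, Py230 tumor replicate 1 or 3, BALB/c gland replicate 1 or 3, or C57BL/6 gland replicate 1 or 3 (-0.52 to -0.43). *Mef2b* differed by 0.25 at 6 w p.i. (adjusted p = 0.0304).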

How the results depend on the processing

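Of 24 member calls, 9 were kept in every alternative, 15 were lost in 1 or more and 0 reversed. The 9 were *Ighm* in 4T1 tumors against glands at 6 w p.i., *Cd79a*, *Jchain*, *Mzb1* and *Igkc* in Py230 tumors against glands at 6 w p.i., and *Jchain*, *Mzb1*, *Ighm* and *Igkc* from 3 to 6 w p.i. in 4T1 tumors. Of 282 values under alternatives 217 kept the call. Counts of members called under an alternative, above and below, stand without the share of all genes under the same setting. The totals over all genes given last cover only part of them. Such counts do not show whether the members or the whole table moved.

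With only the libraries compared in the fit, 0 members were called in 4T1 compared to Py230 tumors at 3 w p.i., 0 in 4T1 tumors against glands at 3 w p.i., 3 between the strains at week 3 and 2 at week 6, and 0 in the comparison of differences at week 3 and 1 at week 6. With genes at or above the median mean score, where 3 members were tested, the counts were 1 at 3 w p.i. and 1 at 6 w p.i. between the lines, 1 in 4T1 tumors against glands at 3 w p.i., 3 in Py230 tumors against glands at 6 w p.i., 0 between the strains at 6 w p.i. and 3 from 3 to 6 w p.i. in 4T1 tumors. Quantile normalization gave 1 in 4T1 tumors against glands at 3 w p.i. and 1 from 3 to 6 w p.i. in Py230 tumors. Of the 5 genes most like the B cell profile, 1 was also among the 5 within the 18 tumors and 2 within the 18 glands.

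Leaving out 1 library gave 1 to 2 members between the lines at 6 w p.i. In 4T1 tumors against glands it gave 0 to 2 at 1 w p.i., 0 to 3 at 3 w p.i. and 1 to 3 at 6 w p.i. In Py230 tumors against glands at 6 w p.i. the range was 4 to 7. Between the strains it gave 0 to 1 at 1 w p.i., the 1 without BALB/c gland replicate 3 or C57BL/6 gland replicate 2, and 0 to 1 at 6 w p.i. From 3 to 6 w p.i. it gave 4 to 7 in 4T1 and 0 to 3 in Py230 tumors. In the comparison of differences at 3 w p.i. it gave 0 to 3, the 3 without 4T1 tumor replicate 2. The cause of these changes was not tested.

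With a replicate block 0 member calls were lost, and *Bank1* from 3 to 6 w p.i. in 4T1 tumors (-0.29) was. In the comparison of differences at 1 w p.i. the block called 150 genes in place of 66. Numbers paired the libraries by the check for the strains at 1 w p.i., where a block within those libraries, chosen after seeing the data, called 234 genes in place of 662, and *Ccl28* (0.37, adjusted p = 0.059) was lost. It changed no member call. The BALB/c glands at 1 and 3 w p.i. were also paired by the check (r 0.15, 0.68 and 0.70), and a fit of those libraries alone, with or without the block, the former chosen after seeing the data, called 0 genes in place of 3 and 0 members.

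Over all genes, a fit of only the libraries compared called 1487 in place of 4196 and 434 in place of 6569 between the lines at 1 and 3 w p.i., 0 in place of 3601 and 0 in place of 704 in 4T1 tumors against glands at 1 and 3 w p.i., 36 in place of 4267 in Py230 tumors against glands at 3 w p.i., 219 in place of 662 between the strains at 1 w p.i., 3 in place of 4320 and 92 in place of 1305 over time in Py230 tumors, 0 in place of 136 from 1 to 3 w p.i. in 4T1 tumors, 135 in place of 47 from 3 to 6 w p.i. in C57BL/6 glands, and 60 in place of 1980 in the comparison of differences at 3 w p.i. Cyclic loess normalization moved the share of calls that were higher from 64.6% to 48.6% from 3 to 6 w p.i. in 4T1 tumors, from 64.2% to 50.6% in 4T1 tumors against glands and from 59.1% to 49.0% between the lines at 6 w p.i. Depth limits are unknown, since scores keep no counts.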
